A study of Oryza sativa with 4 samples.

Results

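The growth-regulating factors (GRFs) of rice were followed in panicle primordia of 2 Indica Group cultivars, Pusa 1266 and Pusa Basmati 1. A gene was taken as a member where the reference gene table gives it the symbol or synonym GRF with a number, in capitals and with or without the prefix Os, and where the array annotation gives a probe set to that gene alone. This rule found 10 genes with 11 probe sets, out of 17905 genes with 22436 such probe sets, and it used no measured value. The members are GRF1, GRF3, GRF4, GRF5, GRF6, GRF7, GRF8, GRF10, GRF11 and GRF12; GRF2 and GRF9 were not matched and are not analysed here. Each cultivar was represented by 2 Affymetrix arrays, made from 2 biological replications of primordia at the stage that the labels call '0', with no treatment named. By the characteristics Pusa 1266 bears many grains on a panicle and Pusa Basmati 1 few, although the sample titles write low for both.

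GRF proteins are plant transcription factors with a WRC domain that binds DNA and a QLQ domain that binds the coactivators called GRF-interacting factors (GIFs). In rice, as in Arabidopsis, the microRNA miR396 cleaves most GRF transcripts and so holds their amount down. The family promotes cell proliferation in young leaves, stems, panicles and grains. Some members repress KNOX homeobox genes, of which some, but not all, keep meristem cells undifferentiated. The microRNA itself is not analysed here.

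The arrays were not on a common level. The trimmed mean signal was 78.0 and 89.1 on the Pusa 1266 arrays, against 138 and 155 for Pusa Basmati 1, while the geometric mean of 9 hybridization spikes was 419 and 517 against 323 and 430.1. The signal ratio of 3' to 5' probe sets is a standard measure of the quality of the RNA and its labelling. In Pusa 1266 it was the higher one for all 4 control transcripts, with no overlap between the cultivars. For GAPDH it was 19.4 ± 1.28 against 8.03 ± 0.669 (SD, n = 2 each), for actin 11.2 against 3.44, for cyclophilin 3.63 against 2.93 and for ubiquitin 1.08 against 0.761. The median of 12 poly-A control probe sets stood apart in 1 array, at 118 and 17.8 in Pusa 1266 replicates 1 and 2 against 81.7 and 90.2 in Pusa Basmati 1. Marker genes were counted through their brightest probe set. Of 8 young inflorescence markers on the array 7 were tested, with 5 higher and 1 lower in Pusa 1266 after the normalization described further on (list median log2 difference 0.44, but −0.29 as deposited) and summed signals of 7717 to 8548 against 8149 to 8804, while FZP, a regulator of spikelet identity, had signals of 5.5 or less on all 4 arrays. The probe sets of a marker could disagree, since MADS14 was not called (−0.12) while its 3 other probe sets were called lower (−0.93 to −1.96), and MADS15 was called higher (0.15) while another of its probe sets was called lower (−0.66). None of 10 later floral organ genes was lower and 4 were higher (median 0.14, but −0.61 as deposited), with summed signals of 5119 to 5802 against 8413 to 9324. Of 6 tested genes of green tissue 5 were lower and none was higher (median −0.95, and −1.66 as deposited). Their summed signals were 1306 to 1328 against 4080 to 4662. Counted in the same way, 34.8% of all tested genes were called higher and 26.2% lower. The 4 of 10 later floral genes called higher lay near that share. The part of the array level, the 3' to 5' ratio and the marker lists in the GRF results was not tested, and in whole primordia fewer cells of a type and less RNA per cell cannot be told apart.

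All 11 GRF probe sets passed the filter on dim signals, and their signals lay between 58.3 and 1520.3 over the 4 arrays. Quantile normalization gives the 4 arrays 1 common distribution of log2(signal + 16), and every log2 difference is Pusa 1266 minus Pusa Basmati 1. On that scale GRF1 and GRF12 were 2.79-fold and 2.87-fold higher in Pusa 1266, GRF7 was 1.95-fold higher, and GRF3 was 1.76-fold lower. GRF11, GRF10 (through 1 of its 2 probe sets) and GRF5 were called higher by smaller amounts that turned negative with the deposited scaling, in which the signals are compared as the authors left them. GRF4, GRF6 and GRF8 were not called. In total 6 probe sets were called higher, 1 was called lower and 4 were not called (limma, Benjamini-Hochberg adjusted p under 0.05), where 53.4% of all tested probe sets were called, 28.2% higher and 25.2% lower. The share of called GRF probe sets was thus near that of the whole array and is no result about the family. At 2-fold or more 2 GRF probe sets were called higher and none lower, where 5.68% and 7.63% of all tested probe sets were.

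GRF1 (LOC4330903, chromosome 2), first found in rice as a transcript that gibberellin raises in the growing stem of deepwater rice, had signals of 703 and 714 in Pusa 1266, against 422 and 440.5 in Pusa Basmati 1. The means were 709 ± 8.27 and 431 ± 13.4 (SD, n = 2 each). Both Pusa 1266 arrays lay above both Pusa Basmati 1 arrays already in the deposited signals. On the normalized log2 scale the difference was 1.48 ± 0.076 (SE, limma adjusted p = 2.46e-06). It was 0.70 with the deposited scaling (adjusted p = 1.27e-04) and 0.38 when arrays were scaled to the hybridization spikes (0.0436). Its probe set is of the kind marked _a_at, which matches several transcripts of 1 gene.

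GRF12 (LOC4336731, chromosome 4) had signals of 99.7 and 130.3 in Pusa 1266, against 60.6 and 58.3 in Pusa Basmati 1. The cultivars did not overlap here either, and the spread between replicates was 21.6 in Pusa 1266 and 1.63 in Pusa Basmati 1 (SD of the signal). The normalized difference was 1.52 ± 0.12 on the log2 scale (SE, limma adjusted p = 2.30e-05), with 0.79 under the deposited scaling (5.96e-05) and 0.51 with the spikes (0.00930). Because these signals are low, the size depends on the 16 added to each signal ahead of the logarithm, and it was 1.81 with a constant of 1 and 1.03 with 64.

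**Figure D1:**
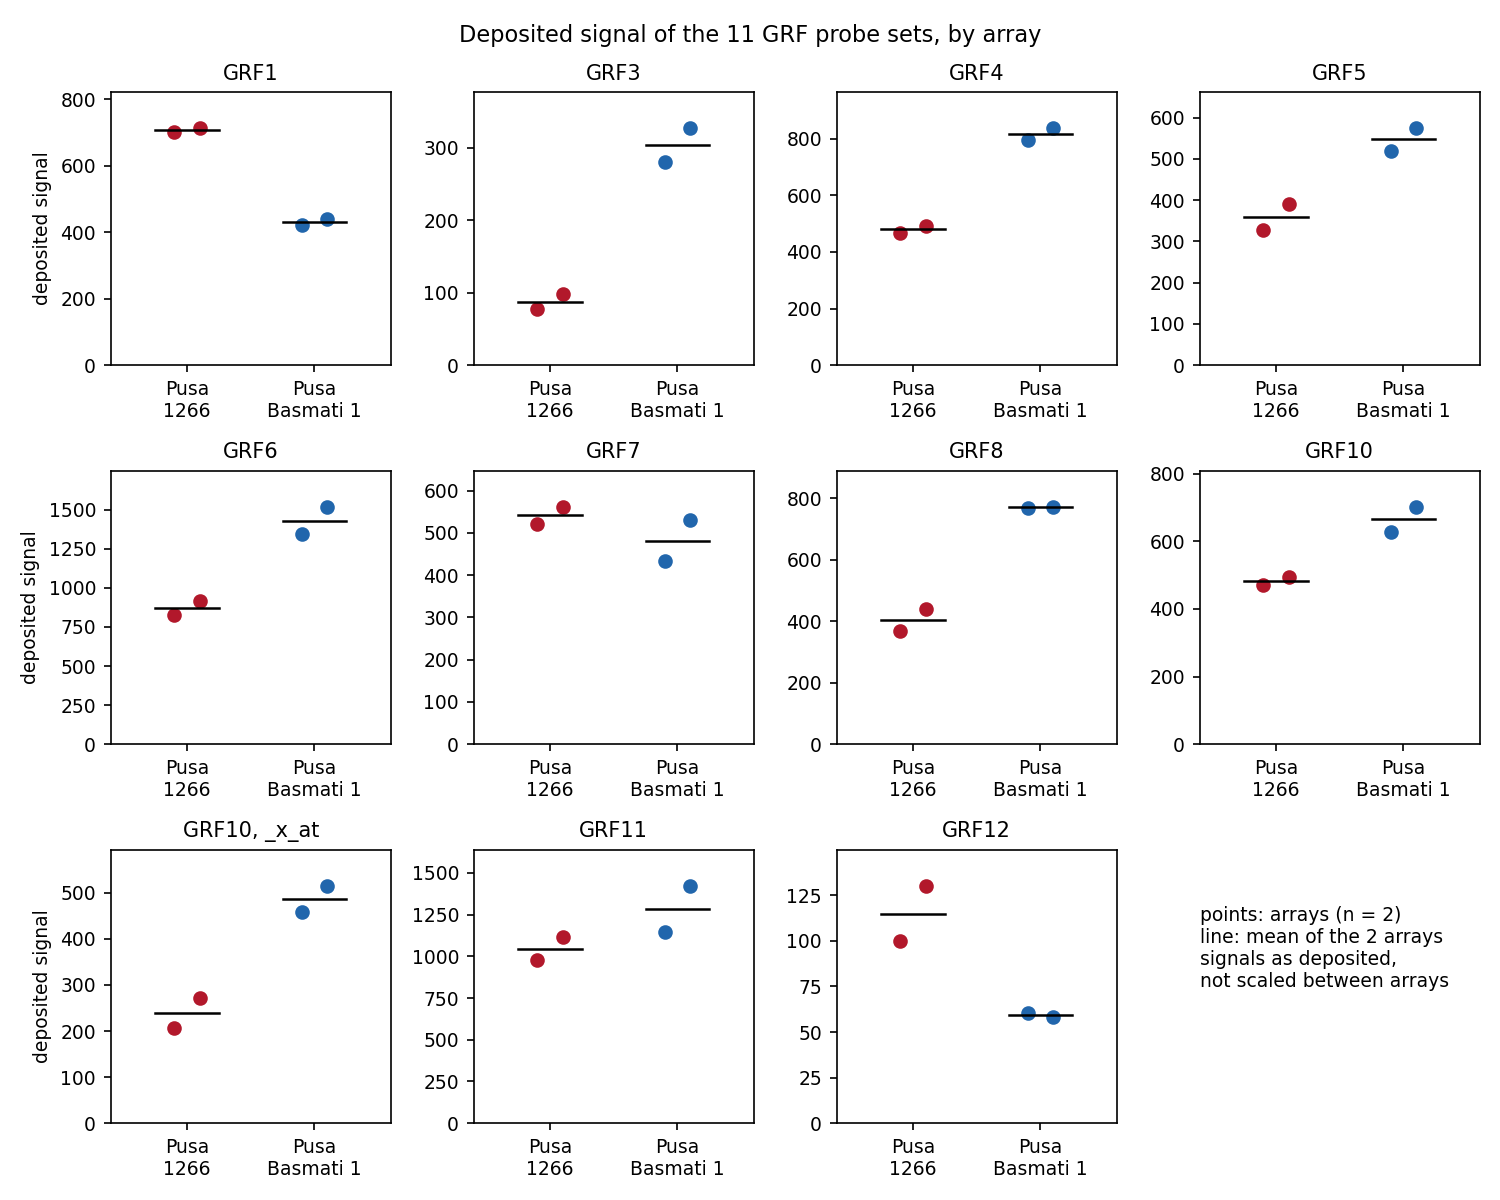
Signals as deposited (linear, arbitrary units, axes from 0) for each of the 11 GRF probe sets, with Pusa 1266 on the left and Pusa Basmati 1 on the right; points are arrays and lines are means of 2 arrays. GRF1 and GRF12 were higher in both Pusa 1266 arrays, the GRF7 signals overlapped, and the other 8 probe sets were lower in both Pusa 1266 arrays. The share of all tested probe sets whose deposited signals did not overlap was not taken. With the signals as deposited limma called 5.48% of all tested probe sets higher and 59.8% lower.

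GRF7 (LOC9268363, chromosome 12), which has been linked to leaf angle and plant architecture in rice, had signals of 522 and 562 in Pusa 1266, against 434 and 529.9 in Pusa Basmati 1. It is the member whose deposited signals overlapped between the cultivars, since the lower Pusa 1266 array stood under the higher Pusa Basmati 1 array. After normalization the values were 9.54 and 9.46 against 8.48 and 8.60 on the log2 scale and no longer overlapped. The difference was 0.96 ± 0.071 (SE, limma adjusted p = 1.70e-05), but 0.17 with the deposited scaling (adjusted p = 0.385) and −0.14 when arrays were scaled to the hybridization spikes (0.473). Relative to the median of all tested probe sets it stood at 0.93 when normalized, 0.72 as deposited and 0.66 with the spikes.

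GRF11 (LOC4343178, chromosome 7) had signals of 977 and 1116 in Pusa 1266, against 1148 and 1424 in Pusa Basmati 1. It was called higher by 0.45 ± 0.061 on the normalized log2 scale (SE, limma adjusted p = 4.95e-04), while with the deposited scaling it stood at −0.29 (adjusted p = 0.118). GRF10 (LOC4330314, chromosome 2), which in rice represses the KNOX gene OSH71 and acts in flower formation together with GRF6, had signals of 471 and 495 in Pusa 1266, against 627 and 702 in Pusa Basmati 1. Its difference was 0.34 ± 0.066 after normalization (adjusted p = 0.00317) and −0.45 with the deposited scaling (0.0160). GRF5 (LOC4339928, chromosome 6) had signals of 327 and 391 in Pusa 1266, against 519 and 576 in Pusa Basmati 1. Its difference of 0.21 ± 0.065 (adjusted p = 0.0253) became −0.59 with the deposited scaling (0.00140). The call of GRF5 was also lost without Pusa 1266 replicate 2 (0.18, adjusted p = 0.101), without Pusa Basmati 1 replicate 1 (0.22, 0.0726), without Pusa Basmati 1 replicate 2 (0.21, 0.0826) and without the variance trend (0.0899). These 3 genes lay above 0 with quantile normalization and trimmed-mean scaling, and below 0 with the deposited scaling, median centring and the spikes, so their direction rests on the scaling. Median centring rests on array medians of 6.8 and 7.8 in Pusa 1266, against 11.5 and 11.3 in Pusa Basmati 1. These all lie under the 16 added to each signal. For GRF5 it gave −0.36, beside −0.59 as deposited and 0.19 with trimmed-mean scaling. With median centring the median of all tested probe sets was itself −0.32. Relative to that median GRF11 stood at 0.26, GRF10 at 0.10 and GRF5 at −0.039.

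GRF10 has a second probe set, marked _x_at because some of its probes match other transcripts, with signals of 207 and 271 in Pusa 1266, against 458 and 516 in Pusa Basmati 1. Its normalized difference was −0.16 ± 0.080 (SE, limma adjusted p = 0.124), on the other side of 0 from the first probe set. With trimmed-mean scaling it stood at −0.22 (adjusted p = 0.0545), and it was called lower with the deposited scaling (−0.99, adjusted p = 7.17e-08), with median centring (−0.75) and with the spikes (−1.29). The opposite signs of the probe sets were therefore seen with quantile normalization and trimmed-mean scaling, whereas both were called lower with the deposited scaling and with the spikes. On log2(deposited signal + 16) the first exceeded the second by 1.12 and 0.83 in Pusa 1266, against 0.44 and 0.43 in Pusa Basmati 1, and these gaps did not overlap between the cultivars. The cultivar differences of the probe sets lay 0.50 apart after quantile normalization, 0.56 apart with trimmed-mean scaling and 0.54 apart with the deposited scaling. Such closeness is largely by construction, since a scaling moves both probe sets on an array by nearly the same log2 amount. Whether the probes match both cultivars equally was not tested, here or for any other probe set. Without Pusa 1266 replicate 2 the second probe set was called lower, at −0.25 (adjusted p = 0.0481).

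GRF3 (LOC4336879, chromosome 4), which like GRF10 represses OSH71 in rice, was the member that fell in Pusa 1266. It had signals of 77.5 and 98.1 in Pusa 1266, against 279.8 and 328 in Pusa Basmati 1, and the cultivars were far from overlapping. The difference was −0.81 ± 0.090 on the normalized log2 scale (SE, limma adjusted p = 1.55e-04), −1.63 ± 0.18 with the deposited scaling (1.88e-18) and −1.92 with the hybridization spikes. The 2 adjusted p values are not comparable, since the difference was of similar size relative to its SE in both fits. After normalization with a constant of 1 in place of 16 the GRF3 difference was −0.89, and with 64 it was −0.64. Its probe set is of the _a_at kind, as for GRF1. GRF3 and GRF12 lie on the same chromosome and differed in opposite directions under every scaling tried.

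Among the members that were not called, GRF4 (LOC4330436, chromosome 2) is the gene known as GS2, GL2 or PT2, in which changes at the miR396 target site give larger grains. Its signals were 466 and 493 in Pusa 1266, against 797 and 839 in Pusa Basmati 1, and the difference after normalization was 0.027 ± 0.068 (SE, limma adjusted p = 0.770). GRF4 was also the 1 member whose normalized values overlapped between the cultivars, at 9.39 and 9.29 against 9.36 and 9.26. GRF6 (LOC4333990, chromosome 3), which promotes panicle branching in rice downstream of miR396, had signals of 828 and 916 in Pusa 1266, against 1342 and 1520.3 in Pusa Basmati 1. Its difference was 0.047 ± 0.052 (adjusted p = 0.485). GRF8 (LOC4350711, chromosome 11), a miR396 target in resistance to the brown planthopper, had signals of 369 and 439 in Pusa 1266, against 768 and 772 in Pusa Basmati 1, and its difference was −0.12 ± 0.074 (adjusted p = 0.195). GRF4, GRF6 and GRF8 were all called lower with the deposited scaling, at −0.75, −0.70 and −0.91. Relative to the median of all tested probe sets with that scaling these were −0.20, −0.15 and −0.36.

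The distance between members hardly moved with the scaling of the arrays. That follows largely by construction, since a scaling moves the members on an array by nearly the same log2 amount. The gap between the member with the highest difference and GRF3, the lowest, was 2.33 on the log2 scale after quantile normalization, and it lay between 2.38 and 2.43 with trimmed-mean scaling, median centring, the deposited scaling and the hybridization spikes. With trimmed-mean scaling 6 probe sets were called higher and 1 lower, as after quantile normalization. With the deposited scaling 2 were called higher (GRF1 and GRF12) and 7 lower, where 5.48% and 59.8% of all tested probe sets were called higher and lower. GRF1 and GRF12 were called higher, and GRF3 lower, under all 5 scalings. The median of the 11 probe sets was 0.21 when normalized and −0.59 as deposited, beside 0.034 and −0.55 for all tested probe sets.

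**Figure D2:**
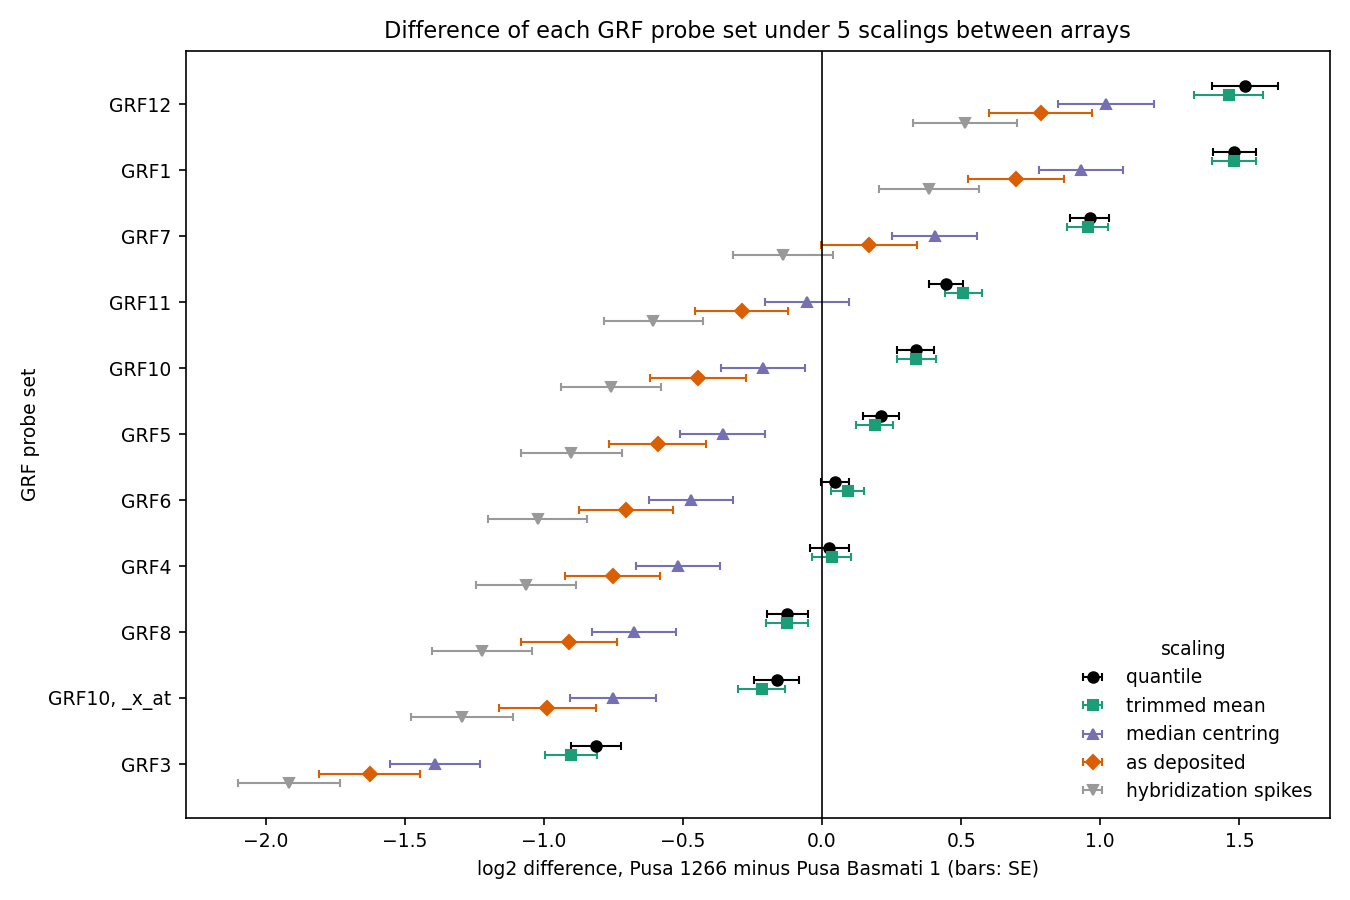
Log2 difference (Pusa 1266 minus Pusa Basmati 1, n = 2 arrays each, bars are SE) of each GRF probe set under 5 ways of scaling the arrays. GRF12 and GRF1 lay above 0 and GRF3 below 0 under all 5, whereas GRF11, GRF10 and GRF5 lay above 0 only with quantile normalization and trimmed-mean scaling, and GRF7 lay below 0 with the hybridization spikes.

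Another measure takes each member relative to the mean of the 11 GRF probe sets on the same array, on the log2 scale. It compares that relative value between the cultivars, and so scales the arrays to the GRF members themselves. Each GRF10 probe set is counted in that mean. By construction the differences balance out over the 11 probe sets, so some must be negative. By this measure GRF12 was 1.21 higher in Pusa 1266 than in Pusa Basmati 1, GRF1 was 1.12 higher and GRF7 was 0.59 higher. GRF3 stood at −1.20, the second GRF10 probe set at −0.56 and GRF8 at −0.49. These relative values did not overlap between the cultivars in 10 of the 11 probe sets. A share over the whole array was not taken for this measure. On quantile-normalized values 76.3% of all tested probe sets did not overlap. For the first GRF10 probe set the difference was −0.024 and the arrays of the cultivars overlapped. Such values show that the members differed unequally, not that any member was level between the cultivars, and they were not tested.

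Against the 30029 tested probe sets, GRF12 and GRF1 lay above 97.7% and 97.5% of all differences and GRF7 above 93.8%. GRF3 lay above 10.6%. The other 7 probe sets lay between 35.6% and 78.6%. With the deposited scaling these places were 97.3% for GRF12, 96.8% for GRF1, 90.1% for GRF7 and 8.21% for GRF3. The normalized values of the cultivars did not overlap in 10 of the 11 GRF probe sets, where 76.3% of all tested probe sets did not overlap. Differences of the size seen for GRF1, GRF12 and GRF7 are therefore in the upper tail of the array, GRF3 lies toward the lower tail, and the other members lie within the bulk. The 10 genes are spread over 7 chromosomes, with GRF1, GRF4 and GRF10 on chromosome 2. Of these 3, GRF1 was past 2-fold and GRF4 was not called after quantile normalization, and GRF10 then had probe sets on both sides of 0.

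**Figure D3:**
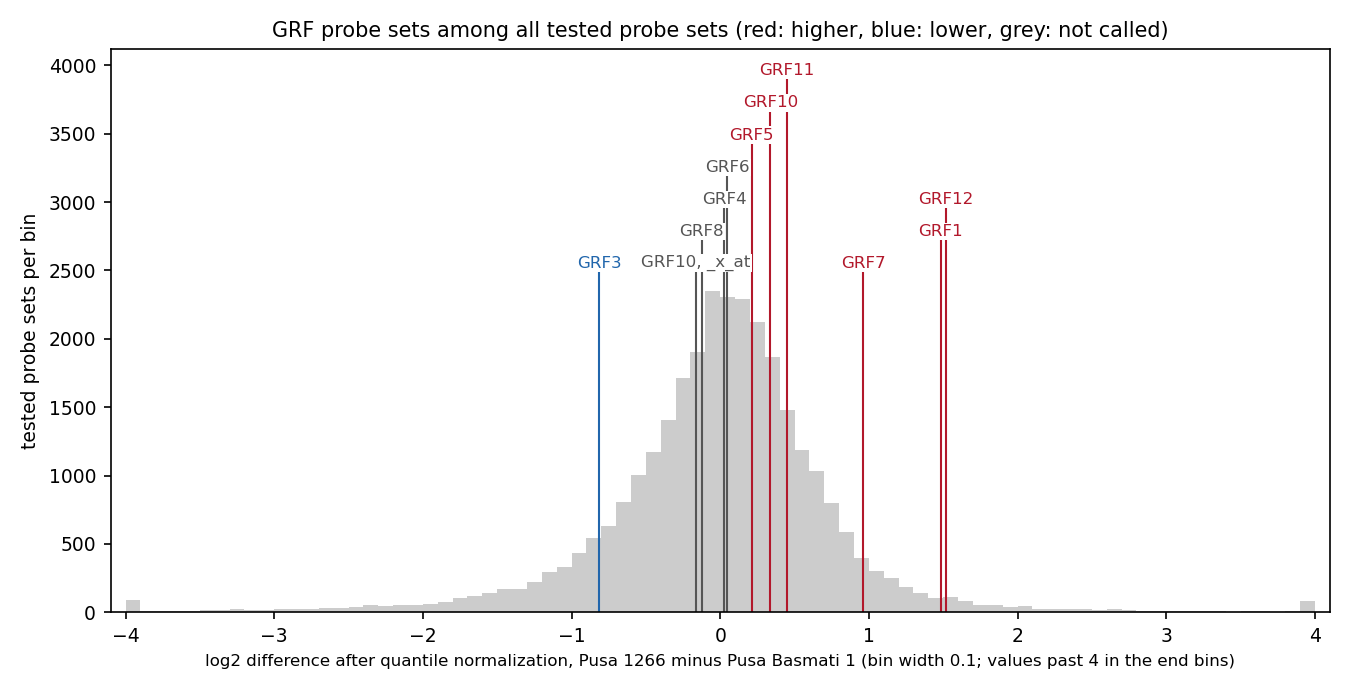
Histogram of the log2 differences (Pusa 1266 minus Pusa Basmati 1, after quantile normalization) of the 30029 tested probe sets, with a line for each GRF probe set. GRF1 and GRF12 stand in the upper tail and GRF3 in the lower shoulder; with the deposited scaling the GRF5, GRF10 and GRF11 lines would lie below 0.

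Genes that act with or under GRF proteins were taken as a list of 18 matched genes, of which 17 had a probe set and all 17 were tested, each through its brightest probe set. In Pusa 1266 10 of them were called higher, 3 lower and 4 not called, where 34.8% and 26.2% of all tested genes were called higher and lower. The list median was 0.58 on the normalized log2 scale, beside 0.074 for all tested genes, and −0.066 with the deposited scaling, beside −0.62. The list was chosen with results of these data known, so its counts are a description.

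MKB3 (LOC4334010), the rice counterpart of the Arabidopsis coactivator GIF1, had signals of 2403 and 2574 in Pusa 1266, against 1709 and 1951 in Pusa Basmati 1. The cultivars did not overlap in the deposited signals. It rose by 1.03 ± 0.046 on the log2 scale (SE, limma adjusted p = 1.30e-06), and by 0.44 with the deposited scaling (0.0119). JMJ706, a histone demethylase gene that GRF6 and GRF10 activate in flower formation, had signals of 124 and 174 in Pusa 1266, against 581 and 601 in Pusa Basmati 1. It fell by 1.08 ± 0.097 (adjusted p = 4.92e-05), and its other probe set stood at −1.47. With the deposited scaling JMJ706 stood at −1.90. CR4, a receptor kinase gene reported as a target of the same GRFs, was not called at 0.098 ± 0.076 (adjusted p = 0.313), with signals of 361 and 424 in Pusa 1266, against 643 and 639.6 in Pusa Basmati 1.

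Of the 6 KNOX genes tested OSH45, OSH71 and OSH1 were called higher, at 1.31, 1.02 and 0.72, although OSH71 and OSH1 stood at −0.099 and −0.20 with the hybridization spikes, while OSH6 (0.21), OSH3 (0.29) and OSH43 (−0.048) were not called. OSH3 was called higher without Pusa 1266 replicate 2 (0.46, limma adjusted p = 0.0417) and OSH6 without Pusa 1266 replicate 1 (0.30, 0.0272). OSH71, the gene that GRF3 and GRF10 repress, had signals of 420.4 and 477 in Pusa 1266, against 373 and 397 in Pusa Basmati 1, and its difference was 0.21 with the deposited scaling (limma adjusted p = 0.282). Among panicle and auxin genes ARF7 (1.13) and the auxin synthesis gene YUCCA1 (0.89, but −0.048 with the spikes) were called higher and MADS34, which acts in spikelet formation, lower (−0.83). The annotation gives the name ARF2 to 2 genes, and the auxin response factor gene LOC4326957 was called higher (0.58, but −0.066 as deposited) while LOC4325895, also called ETTIN2, was called lower (−0.23, adjusted p = 0.0251). The call of LOC4325895 was lost without Pusa 1266 replicate 1 (−0.22, 0.0851), without Pusa 1266 replicate 2 (−0.23, 0.0786) and without Pusa Basmati 1 replicate 1 (−0.14, 0.112). It was also lost with no filter (adjusted p = 0.0919), without the variance trend (0.124) and with trimmed-mean scaling (0.0569), while its other probe set stood at −0.90. Of the signalling genes SLR1, a DELLA repressor of gibberellin responses that counteracts GRF4, stood at 1.23, GSK2, a kinase that inhibits GRF4 in brassinosteroid signalling, at 0.87 (−0.22 with the spikes) and the gibberellin receptor gene GID1 at 0.41 (−0.63 with the spikes), all called higher. With the deposited scaling 8 of the 10 higher genes stayed above 0 and GID1 and LOC4326957 turned to −0.31 and −0.066, and all 10 stood above the median of all tested genes. With the spikes limma called 0 of the 17 genes higher, where 415 of all 15183 tested genes were called higher. Of the 17 genes 0 were higher at an unadjusted p under 0.05, and of the 10 SLR1, MKB3, ARF7 and OSH45 lay above 0. The 3 lower genes lay below 0 under all 5 scalings.

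**Figure D4:**
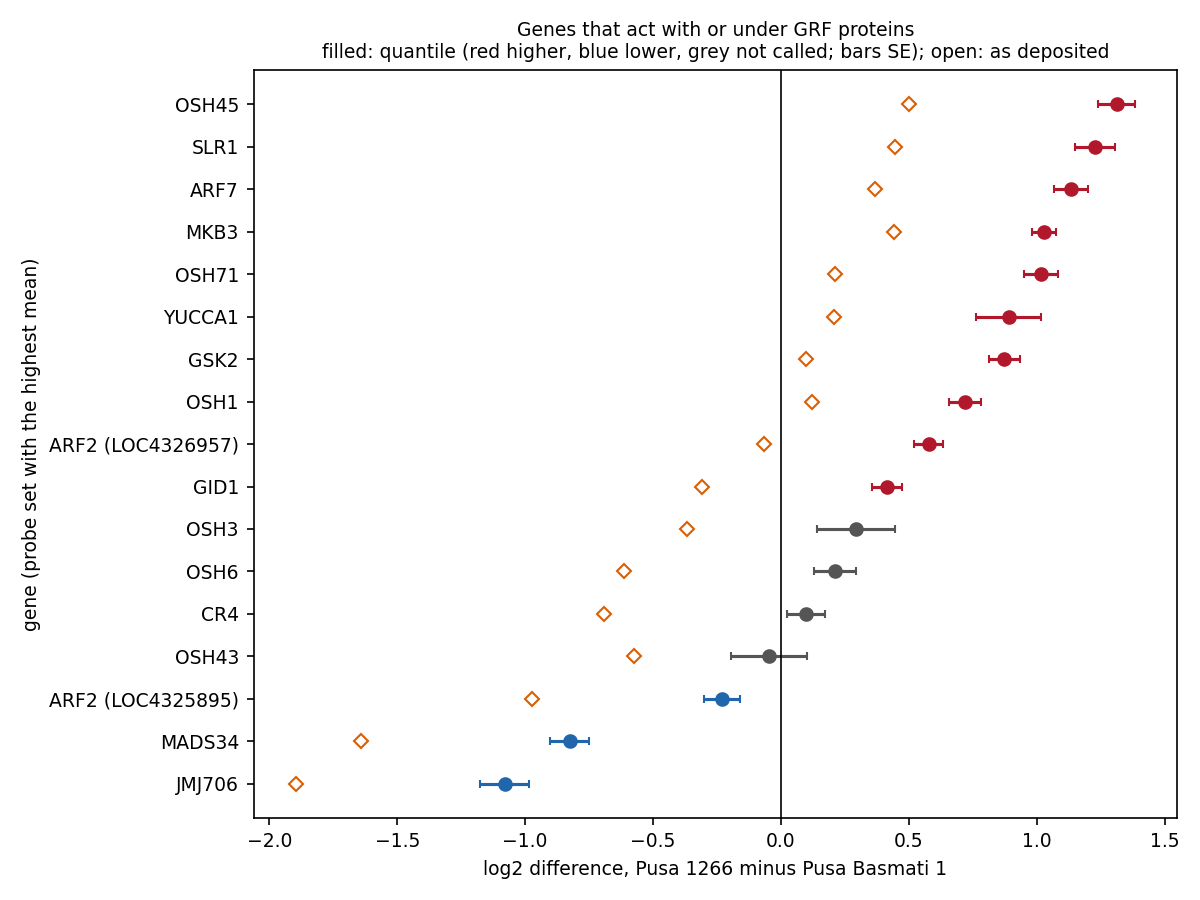
Log2 difference (Pusa 1266 minus Pusa Basmati 1, n = 2 arrays each) of the 17 tested partner and target genes, after quantile normalization (filled points, bars are SE) and as deposited (open points). MKB3 lay above 0 and JMJ706 and MADS34 below 0 in both, while GID1 and ARF2 (LOC4326957) were above 0 only after normalization.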

How the data were processed

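The deposited intensities are linear signals, 1 for each probe set on each array. The submitters' processing notes name GCOS 1.2 as the authors' tool; background handling and scaling target, not given in the sources used here, are unknown. Arrays give no counts, and their number (4) limits the precision. The 123 control probe sets were left out. Signals plus 16 were taken to log2 and quantile-normalized in limma 3.58.1 (R 4.3.3), and probe sets above their array's median on at least 2 arrays were tested (30029 of them). The model compared Pusa 1266 with Pusa Basmati 1 (lmFit, eBayes with a trend; Benjamini-Hochberg over all tested probe sets, threshold 0.05), and the procedure was tested on simulated data. A permutation test of 1 value cannot go below an exact two-sided p of 0.333 with 2 arrays against 2, so none was run. Genes were named through the array annotation and the reference table of ASM3414082v1, whose coordinates are not used. Alternatives were other scalings, constants, filters and sample subsets. Trimmed-mean and hybridization spike scaling were chosen after seeing the data. Adjusted p values with the deposited scaling, median centring and the spikes are not comparable in size with those after quantile normalization. A smaller one there is not stronger evidence. The text names every GRF probe set, every partner and target gene on the array and the control transcripts. Members, lists and tests were chosen with earlier results of these data known. Tables and plots were made in Python 3.11.15 with pandas 2.3.3 and matplotlib 3.10.9.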

Additional observations from a re-analysis of the deposited data

How the results depend on the processing

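GRF counts were 6 higher and 1 lower with constants of 1 and 64, no filter, the higher filter, trimmed-mean scaling and the replicate block. Without the variance trend they were 5 and 1. Of all 30029 tested probe sets 8176 were called higher and 7251 lower with a constant of 1, and 8535 and 7637 with 64. These counts were 8463 and 7780 with trimmed-mean scaling, 8656 and 7702 with the block, and 7643 and 7062 without the trend. With no filter 6959 and 6361 of 57258 probe sets were called, and with the higher filter 6205 and 5181 of 15525. Scaling moved the counts. With the deposited scaling, median centring and the hybridization spikes 5.48%, 9.68% and 3.52% of all tested probe sets were called higher. The shares called lower were 59.8%, 45.5% and 72.7%. GRF probe sets called higher were 2 with the deposited scaling, 3 with median centring and 2 with the hybridization spikes. Those called lower were 7, 6 and 8. With 1 array left out at a time GRF1 ran from 1.39 to 1.55 and GRF12 from 1.41 to 1.63. GRF7 ran from 0.91 to 1.03 and GRF3 from −0.87 to −0.77. The lone array left in a cultivar is then assumed to vary like the others. The GRF median was −0.59, −0.36 and −0.90 under those 3 scalings and 0.18 to 0.24 with an array left out. Under the deposited scaling, median centring and the spikes GRF4 stood at −0.75, −0.52 and −1.07, and GRF5 at −0.59, −0.36 and −0.90. GRF6 stood at −0.70, −0.47 and −1.02, GRF10 at −0.45, −0.21 and −0.76 and GRF11 at −0.29, −0.054 and −0.61. GRF7 stood at −0.14 with the spikes. The settings differ by construction in the level taken as common between the arrays. Quantile normalization also gives the arrays 1 common distribution. The part of each in these signs was not tested. GRF4 ran from −0.025 to 0.079 with an array left out. Of all 15183 tested genes 703 were called higher with the deposited scaling and 415 with the spikes. Those called lower were 10105 and 12267, and 7826 with median centring. Partner and target genes called higher were 4 with the deposited scaling and 0 in limma with the spikes (0 also at an unadjusted p under 0.05). Partner and target genes called lower were 6 and 9, 5 with median centring and 5 when every probe set was counted. The replicate number as a block gave 7 GRF probe sets and 13 partner genes called, as without it. No label says that the numbers pair the cultivars. The replicate deviations correlated with r = 0.0181 across probe sets. That value cannot decide whether they were paired, since normalization removes a level that paired arrays would share. Signal over background cannot be judged, because detection calls are not analysed here.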
